A study of Homo with 4 samples.

Results

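The mitochondrial ribosomal protein genes are the nuclear genes for the proteins of the mitochondrial ribosome, here those whose symbol is MRPL or MRPS followed by a number. Symbols were assigned by position on GRCh38, and 77 of the 20263 genes of the count table were members, 49 of the large subunit (MRPL) and 28 of the small subunit (MRPS). All 77 protein-coding RefSeq genes with such a symbol were found, and all 77 had enough counts to be tested. They lay on 21 chromosomes, with at most 8 on any of them (chromosomes 1, 2 and 17).

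Mitochondria carry their own ribosome, which translates the few proteins encoded in mitochondrial DNA, core subunits of the respiratory chain and of ATP synthase. Its ribosomal RNAs come from mitochondrial DNA, while every protein of it is encoded in the nucleus, made in the cytosol and imported. Some of these proteins descend from bacterial ribosomal proteins and keep their numbers, and others were added in mitochondria. The large subunit forms the peptide bond and holds the exit tunnel, and the small subunit reads the mRNA.

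H1299 is a human line established from a non-small cell lung cancer, and mRNA-seq libraries were compared between H1299 cells infected with lentivirus for a control hairpin (shCtrl, n = 2, given as wild type in the labels) and for a hairpin against the RNA-binding protein IGF2BP3 (shIGF2BP3, n = 2, given as IGF2BP3 knockdown). Both groups therefore carried a lentivirus, and no uninfected cells were included. The hairpin behind each shIGF2BP3 library is not given in the sources used here, so the spread between the 2 libraries may include a difference between hairpins, and the deposited tables number these libraries 2 and 3 where the sample labels say 1 and 2. The labels call the samples biological replicates without naming separate infections, and p-values measure only the spread between these samples.

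Total counts were 29709686 to 34817513 per library. Values are given below in CPM, counts divided by library size on a common scale, with TMM factors of 0.9271 to 1.0852, and in the order shCtrl 1, shCtrl 2, shIGF2BP3 1 and shIGF2BP3 2. IGF2BP3 itself stood at 41.1 and 32.9 CPM in shCtrl and at 26.4 and 24.8 CPM in shIGF2BP3, so the groups did not overlap and the knockdown libraries held 69.1% of the control level (log2 fold change -0.53, SE 0.17, adjusted p = 0.472 with Benjamini-Hochberg over all genes in edgeR's quasi-likelihood fit). KRT8 and KRT18 (699 to 1400 CPM) and VIM (4340 to 7100 CPM) were abundant, EPCAM did not exceed 0.354 CPM, CDH1 was at 0 in 3 libraries and at 0.0579 CPM in the other, and PTPRC, CD3E, HBB and GFAP were at 0 in all 4. The labels call these cells epithelial, and the keratins were present while EPCAM and CDH1 were close to 0.

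The mRNAs of the mitochondrial ribosome were all well expressed, at levels that differed widely between members. FPKM, which divides by transcript length, was used to compare levels between genes. In shCtrl the members had a median mean level of 49.7 FPKM and ran from 6.34 to 255 FPKM, a 40.3-fold range. Each of the 77 lay above the median of all tested genes in shCtrl, 5.98 FPKM. The order of the members was nearly the same in every library, with Spearman's rho of 0.943 to 0.982 between pairs of libraries over the 77 genes (a description, since all points of a pair come from the same libraries). Counts of a member in a library ran from 409 to 10024, so counting error was at most 4.94%. It was small beside the biological coefficient of variation common to all genes, 22.8%, though replicates of some members lay closer together than counting error.

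Among large-subunit mRNAs the highest mean level was that of MRPL51, a protein added in mitochondria. It stood at 247 and 263 FPKM in shCtrl and at 305 and 269 FPKM in shIGF2BP3. MRPL20, a homolog of a bacterial assembly protein of the large subunit, followed in shCtrl at 173 and 181 FPKM, with 206 and 225 FPKM in shIGF2BP3. MRPL18, a protein of the central protuberance, was at 160 and 164 FPKM in shCtrl and at 218 and 267 FPKM in shIGF2BP3. These 3 had the highest means over the 4 libraries. In shCtrl they kept their order with no overlap, while in shIGF2BP3 the MRPL18 and MRPL20 ranges overlapped. In shCtrl MRPL12, at 166 and 183 FPKM, lay above MRPL18 and overlapped MRPL20. The lowest large-subunit levels were those of MRPL30 at 5.87 to 6.80 FPKM, MRPL42 at 6.16 to 10.9 FPKM and MRPL49 at 6.61 to 15.3 FPKM, ranges over the 4 libraries that overlap each other. For MRPL42 the measures disagreed, since shIGF2BP3 2 was its lowest library in FPKM (6.16) and its highest in CPM (71.6). Its CPM was 50.4 and 56.4 in shCtrl and 51.4 in shIGF2BP3 1.

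Among small-subunit mRNAs MRPS24 had the highest shCtrl mean, from 143 and 204 FPKM, with 144 and 125 FPKM in shIGF2BP3. MRPS12, the homolog of the bacterial decoding-centre protein S12, stood at 159 and 165 FPKM in shCtrl and at 145 and 116 FPKM in shIGF2BP3. MRPS15, the homolog of bacterial S15, was at 134 and 151 FPKM in shCtrl and at 161 and 203 FPKM in shIGF2BP3. The ranges of these 3 overlapped over the 4 libraries. The lowest levels were those of MRPS14 at 6.73 to 13.5 FPKM, MRPS25 at 11.4 to 13.1 FPKM and MRPS17 at 12.02 to 16.6 FPKM. The median level in shCtrl was 59.5 FPKM over the large and 42.5 FPKM over the small subunit. It was 61.7 FPKM over the 46 members classed with a bacterial homolog and 36.1 FPKM over the 31 classed as specific to mitochondria. MRPS18A and MRPS18B, though related to bacterial S18, are among those 31.

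**Figure D1:**
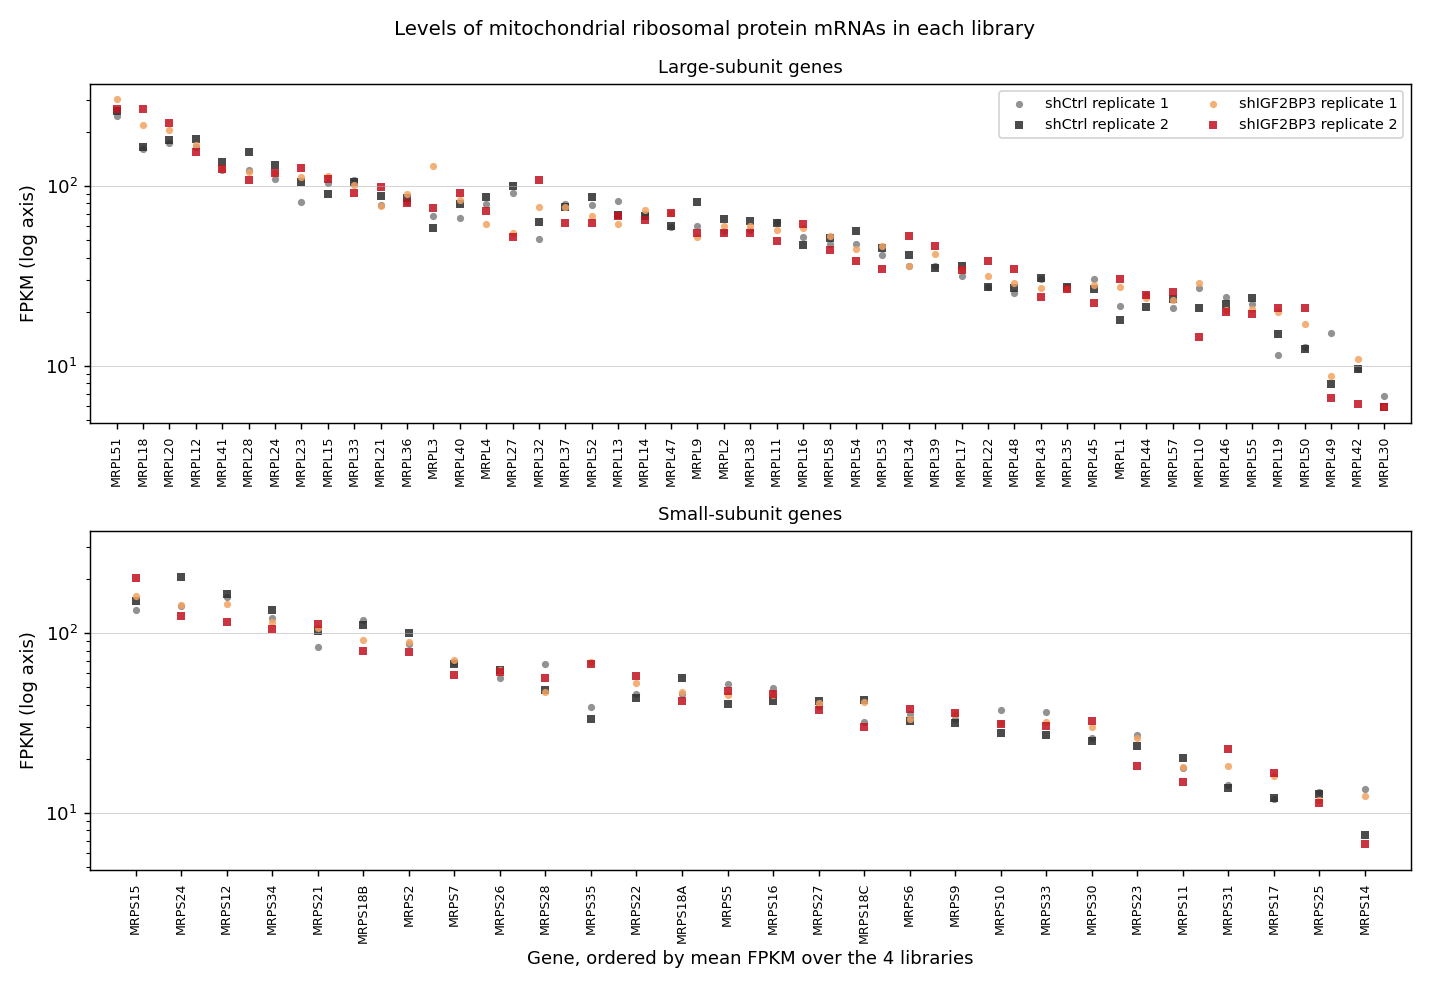
FPKM of each of the 77 mRNAs in each of the 4 libraries on a log axis, with the large subunit above and the small subunit below and genes ordered by their mean. The 4 points of a gene lie close together beside the 40.3-fold range between genes in shCtrl, and MRPL51 stands at the top of the large subunit.

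In CPM the summed level of the mitochondrial ribosomal protein mRNAs differed between the groups by no more than between control replicates. The 77 mRNAs together took 6269 and 7095 CPM in shCtrl and 6967 and 7332 CPM in shIGF2BP3, so the groups overlapped. As a share of all counts this was 0.680% and 0.690% in shCtrl and 0.711% and 0.680% in shIGF2BP3, also with overlap. As a share of counts from nuclear genes it was 0.748% and 0.798% in shCtrl and 0.803% and 0.819% in shIGF2BP3, and on that scale the groups did not overlap, though the control libraries differed by more than the gap between the groups. Large-subunit mRNAs summed to 3788 and 4371 CPM in shCtrl and to 4324 and 4612 CPM in shIGF2BP3, and small-subunit mRNAs to 2481 and 2724 CPM and to 2643 and 2720 CPM, with overlap between the groups in each subunit. Of nuclear counts, large-subunit mRNAs took 0.452% and 0.491% in shCtrl and 0.498% and 0.515% in shIGF2BP3, without overlap, and small-subunit mRNAs 0.296% and 0.306% against 0.305% and 0.304%, with overlap. The ratio of the large to the small sum was 1.53 and 1.60 in shCtrl and 1.64 and 1.70 in shIGF2BP3. The ratio did not overlap between the groups, but an exact two-sided permutation test of 2 against 2 libraries cannot go below p = 0.333, and the gap between the nearest libraries of the groups was smaller than the difference between the replicates of either group. In bulk RNA a change in how many cells hold these mRNAs and a change per cell cannot be told apart. Values scaled to library size also do not show absolute amounts.

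The mRNAs that this ribosome translates varied more between libraries than the mRNAs of its own proteins. The 13 mRNAs encoded on mitochondrial DNA took 9.11% and 13.4% of counts in shCtrl and 11.4% and 17.0% in shIGF2BP3, so within each group the second replicate was the higher, and the groups overlapped. All 13 had a positive log2 fold change, with a median of 0.478. In 2 of them (15.4%, against 23.3% of all tested genes) both knockdown libraries lay above both controls, and 1, ND3 of respiratory complex I, passed the fold and p thresholds given below (7.69%, against 2.54%). Summed CPM of the nuclear members was also higher in the second replicate of each group. The part of the mitochondrial share in the values of the members was not tested.

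Gene by gene, 42 of the 77 members had a positive and 35 a negative log2 fold change (45.5% lower, against 50.2% of all genes tested), and the median was 0.016 against -0.002 over all 13379 genes tested. The quartiles of the members were -0.12 and 0.31, against -0.22 and 0.22 over all tested genes. Values ran from -0.76 to 1.02, with a median SE of 0.16, and 43 members lay within 0.2 of no change on the log2 scale. Members were called when the fold change was at least 1.5 and the unadjusted p at most 0.05, the thresholds named by the study. This called 7 members higher, 9.09% of them where 2.54% of all tested genes were called higher, and 1 member lower, 1.3% where 2.78% of all tested genes were called lower. In either direction 8 members were called, and 5.32% of all tested genes.

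At an adjusted p under 0.05 edgeR called 0 members and 0 genes in all, with 0.131 as the smallest adjusted p of a member. At an unadjusted p of at most 0.05 it found 13 members (10.5% of all genes passed), 11 of them higher (14.3%, against 5.43% of all genes) and 2 lower (2.6%, against 5.12%). DESeq2 gave an adjusted p under 0.05 for 2 members, MRPS35 and MRPL27, where 1.2% of all tested genes passed. Both knockdown libraries lay above both control libraries for 25 members (32.5%, against 23.3% of all genes) and below them for 13 (16.9%, against 23.5%).

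The median fold change of both subunits was close to that of all genes. It was 0.056 over the 49 large-subunit members, with 27 positive, 5 called higher and 1 called lower, and 0.003 over the 28 small-subunit members, with 15 positive, 2 called higher and 0 lower. Among large-subunit members the 30 with a bacterial homolog had a median of 0.119 with 4 called higher and 1 lower, and the 19 specific to mitochondria a median of -0.001 with 1 called higher. In the small subunit the 16 with a bacterial homolog had a median of -0.004 and 0 calls. The 12 classed as specific to mitochondria, MRPS18A and MRPS18B among them, had a median of 0.003 with both of the calls. MRPS30 and MRPS18A are named for the small subunit but sit in the large one, and moving them left the medians at 0.056 and 0.003. With library totals in place of TMM all values shifted, with medians of -0.019 for the large subunit, -0.077 for the small subunit and -0.081 for all genes.

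**Figure D2:**
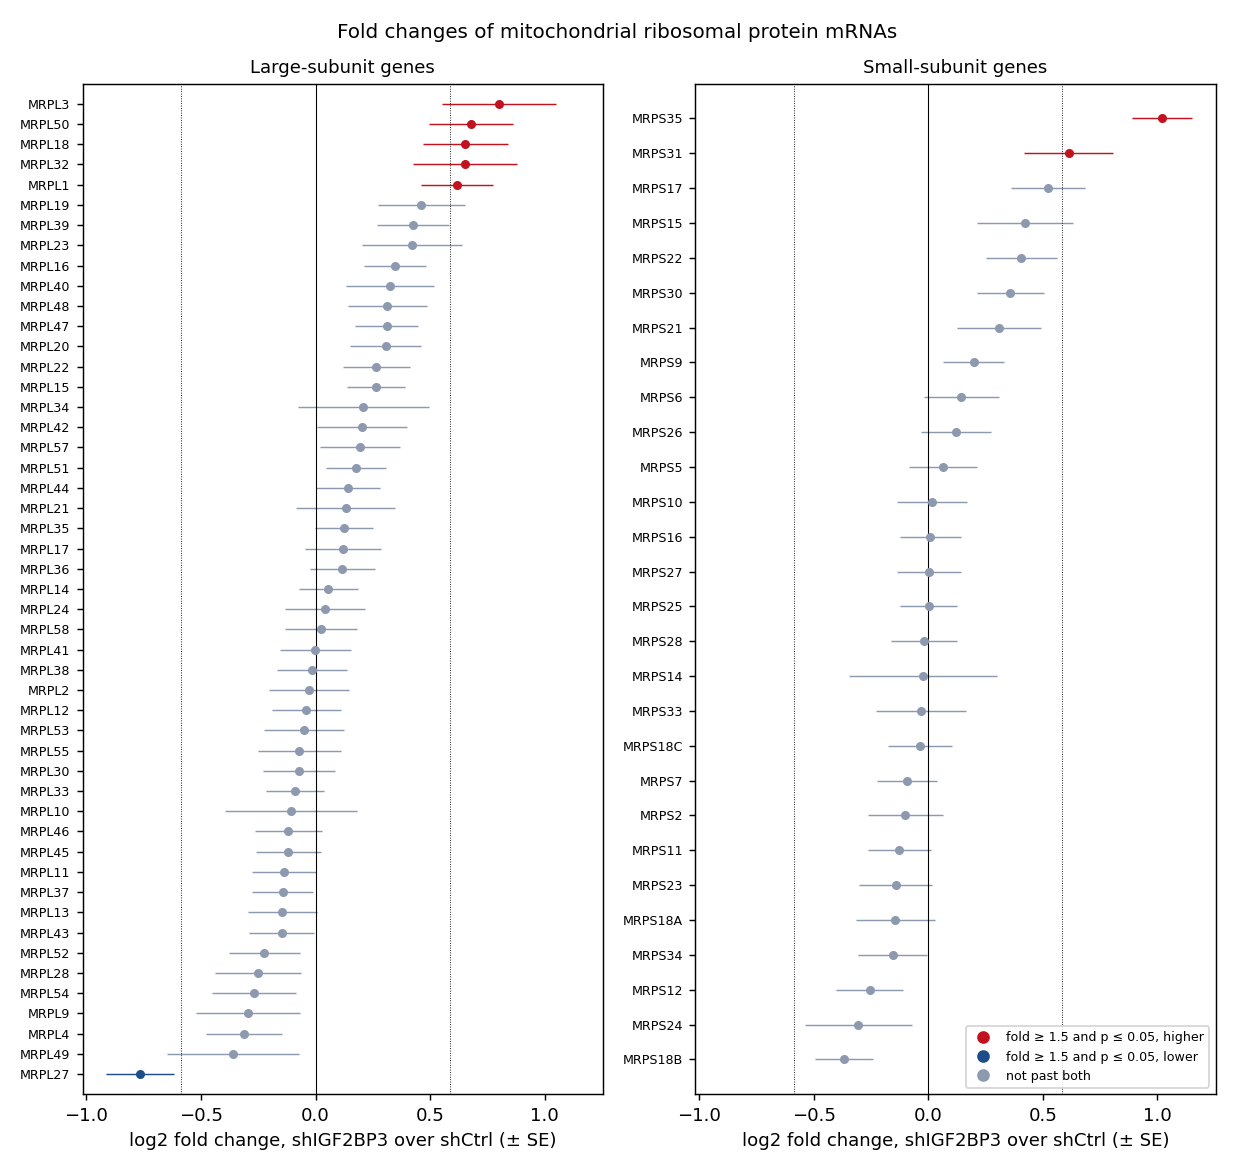
Log2 fold change of shIGF2BP3 over shCtrl (horizontal axis, bars ± SE from edgeR) for the 49 large-subunit and the 28 small-subunit genes, with genes past a fold of 1.5 and p of 0.05 in colour. Most genes lie near 0, MRPS35 lies highest at 1.02 and MRPL27 lowest at -0.76.

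MRPS35, a small-subunit protein specific to mitochondria, rose the most. Its mRNA (ENSG00000061794, chromosome 12, 27710773 to 27756295, plus strand) stood at 78.0 and 73.2 CPM in shCtrl and at 149 and 158 CPM in shIGF2BP3. Both knockdown libraries lay about as far above the controls, and replicates differed little, with means of 75.6 ± 3.39 and 153 ± 6.28 CPM (SD, n = 2 each). The fold change was 2.03 (log2 1.02, SE 0.13, adjusted p = 0.131 with edgeR). It remained past both thresholds under each of the 11 other processing settings tried and with any of the 4 libraries left out, with adjusted p from 5.91e-09 with DESeq2 to 0.454 over those settings.

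MRPL27 was the only member called lower. It is the homolog of bacterial L27, a protein that reaches close to the peptidyl transferase centre. Its mRNA (ENSG00000108826, chromosome 17, 50367857 to 50373214, minus strand) stood at 78.6 and 94.2 CPM in shCtrl and at 50.4 and 51.3 CPM in shIGF2BP3. The knockdown libraries nearly coincided, and the control libraries differed more, with means of 86.4 ± 11.02 and 50.8 ± 0.652 CPM (SD, n = 2 each). The knockdown level was 58.9% of control (log2 fold change -0.76, SE 0.15, adjusted p = 0.430 with edgeR). This call also held under each of the 11 settings and with any library left out, with adjusted p from 0.00391 with DESeq2 to 0.464 over those settings.

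The other 6 members called higher rested more on single libraries. MRPL3 (ENSG00000114686, chromosome 3, 131462212 to 131502983, minus strand), homolog of the L3 protein that bacterial ribosomes need early in assembly, was at 111 and 106 CPM in shCtrl and at 235 and 144 CPM in shIGF2BP3. The controls lay close together and the knockdown libraries did not, with shIGF2BP3 1 far above shIGF2BP3 2. Its log2 fold change was 0.80 (SE 0.25, adjusted p = 0.472 with edgeR). Of the 4 fits with a library left out, only the one without shIGF2BP3 2 kept the call, and values ran from 0.41 to 1.11.

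MRPL50 (ENSG00000136897, chromosome 9, 101387633 to 101398614, minus strand), a protein specific to mitochondria, was at 46.2 and 49.8 CPM in shCtrl and at 65.4 and 88.3 CPM in shIGF2BP3. MRPL18 (ENSG00000112110, chromosome 6, 159790466 to 159798436, plus strand) was at 170.4 and 194 CPM in shCtrl and at 245 and 328 CPM in shIGF2BP3. MRPL32 (ENSG00000106591, chromosome 7, 42932200 to 42937857, plus strand), which the m-AAA protease trims before it joins the ribosome, was at 65.1 and 83.4 CPM in shCtrl and at 96.3 and 137 CPM in shIGF2BP3. In all 3 the knockdown libraries lay above both controls and shIGF2BP3 2 was the highest of the 4. The log2 fold changes were 0.68 (SE 0.18), 0.65 (SE 0.19) and 0.65 (SE 0.23), each with an adjusted p of 0.472 with edgeR. Each of these calls was lost without shCtrl 1 and without shIGF2BP3 2, and the lowest log2 fold changes with a library left out were 0.38 for MRPL32, 0.43 for MRPL18 and 0.44 for MRPL50.

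MRPL1 (ENSG00000169288, chromosome 4, 77862520 to 77952790, plus strand), homolog of the protein of the bacterial L1 stalk, was at 34.9 and 32.1 CPM in shCtrl and at 46.7 and 56.1 CPM in shIGF2BP3. MRPS31 (ENSG00000102738, chromosome 13, 40729135 to 40771173, minus strand), a small-subunit protein specific to mitochondria, was at 22.9 and 24.3 CPM in shCtrl and at 30.7 and 41.5 CPM in shIGF2BP3. In both the groups were apart and shIGF2BP3 2 was highest. These were the calls nearest to the fold threshold, with folds of 1.53 for MRPL1 (adjusted p = 0.472 with edgeR) and 1.53 for MRPS31 (adjusted p = 0.472 with edgeR). The MRPL1 call was lost without shCtrl 2 or without shIGF2BP3 2 (lowest log2 fold change 0.48), and the MRPS31 call without shCtrl 1, shCtrl 2 or shIGF2BP3 2 (lowest 0.38). Under the 11 other settings MRPL3, MRPL32 and MRPL50 kept their call in 9, MRPL18 in 7 and MRPL1 and MRPS31 in 6, with adjusted p up to 0.599. The log2 fold changes ran over those settings from 0.65 to 0.80 for MRPL3, 0.57 to 0.68 for MRPL32, 0.56 to 0.68 for MRPL50, 0.57 to 0.66 for MRPL18, 0.53 to 0.62 for MRPL1 and 0.50 to 0.61 for MRPS31, and all stayed positive.

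**Figure D3:**
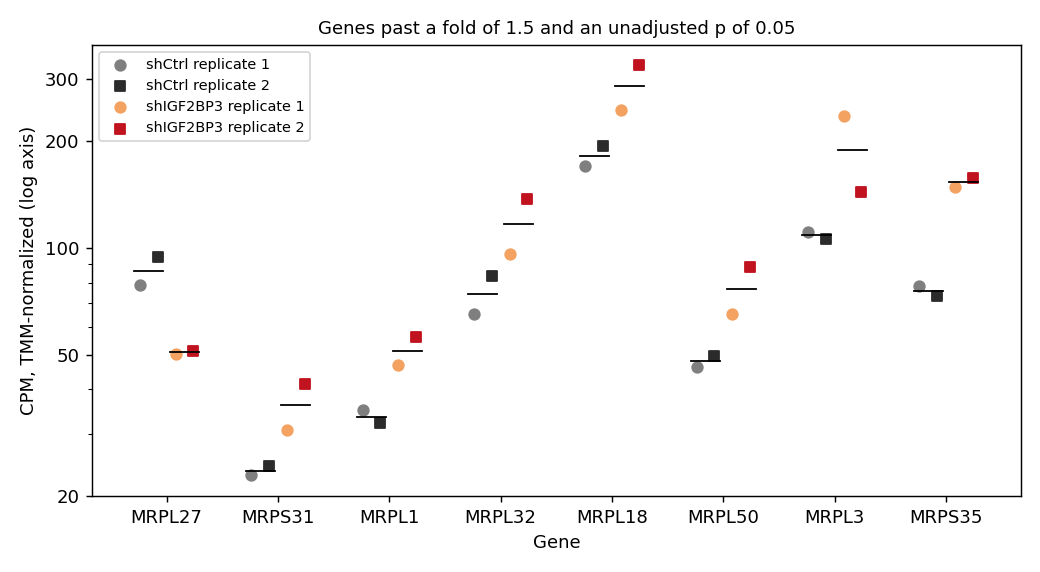
CPM of the 8 called genes in each library on a log axis, with shCtrl in grey and black and shIGF2BP3 in orange and red. MRPS35 lies higher in both knockdown libraries at 149 and 158 CPM, MRPL27 lies lower in both at 50.4 and 51.3 CPM, and the 2 knockdown libraries of MRPL3 lie apart at 235 and 144 CPM.

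Just outside the fold threshold lay MRPS17, homolog of bacterial S17, at 22.1 and 24.4 CPM in shCtrl and at 31.0 and 35.8 CPM in shIGF2BP3 (fold 1.44, adjusted p = 0.472 with edgeR). It passed both thresholds without shCtrl 2 (log2 fold change 0.59) and without shIGF2BP3 1 (0.63). The same strand also holds NIPSNAP2, with 47.0% to 60.8% of the counts of the pair, and with overlapping genes pooled the log2 fold change was 0.27 and did not pass (adjusted p = 0.499 with edgeR). MRPL39, MRPS22 and MRPL16 also had an unadjusted p of at most 0.05 at smaller folds, with log2 fold changes of 0.43, 0.41 and 0.35. Among lower values the next smallest p was that of MRPS18B, at 199 and 206 CPM in shCtrl and at 161 and 153 CPM in shIGF2BP3 (log2 fold change -0.37, SE 0.13, adjusted p = 0.472 with edgeR). Its groups were apart, at a fold of 1.29. MRPL4, MRPS12 and MRPL54 followed among members whose knockdown libraries both lay below the controls, with log2 fold changes of -0.31, -0.26 and -0.27, and did not pass the threshold on p.

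MRPS18A, MRPS18B and MRPS18C are paralogs of each other and homologs of bacterial S18, and MRPS18A sits in the large subunit. In the classes above only MRPS18C was counted with a bacterial homolog, and MRPS18A and MRPS18B were counted as specific to mitochondria. The other paralogs gave no value as low as MRPS18B, with -0.14 for MRPS18A (51.4 and 67.8 CPM against 54.9 and 53.1 CPM) and -0.04 for MRPS18C (48.5 and 48.9 CPM against 50.4 and 44.6 CPM), and the differences between paralogs were not tested. MRPS30, also a large-subunit protein by position, was at 48.0 and 50.8 CPM in shCtrl and at 58.1 and 68.5 CPM in shIGF2BP3 (log2 fold change 0.36, adjusted p = 0.477 with edgeR). MRPL58, a peptidyl-tRNA hydrolase that is built into the large subunit, stood at 45.3 to 54.4 CPM over the 4 libraries (0.03), and MRPL57 at 51.6 to 72.4 CPM (0.20), both with overlapping groups.

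At the level of transcripts, calls also fell in members whose summed count was not called. The 77 members had 318 transcripts in the table, 16 members with only 1, and 256 transcripts were tested among 37927 in all. With the same thresholds 12 were called higher (4.69%, against 2.5% of all tested transcripts) and 7 lower (2.73%, against 3.79%), 7.42% in either direction against 6.3%, and 0 had an adjusted p under 0.05, of members or of all transcripts, with 0.419 as the smallest for members. These calls fell in 15 members, of which the gene itself was called in 7. Transcripts of a gene share exons, so their counts are estimates that split the same reads.

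MRPS7, homolog of a bacterial protein that starts the folding of the small-subunit head, was level as a gene at 106 and 108 CPM in shCtrl and at 105 and 96.0 CPM in shIGF2BP3 (log2 fold change -0.09). Its transcript ENST00000245539 held 392 and 359 counts in shCtrl and 1021 and 1087 counts in shIGF2BP3, so that its share of the gene went from 9.83% and 9.77% to 28.2% and 41.1%. Both knockdown libraries were far above both controls (log2 fold change 1.73, adjusted p = 0.419 with edgeR). ENST00000579002, the leading transcript in shCtrl, held 2414 and 1736 counts in shCtrl and 1303 and 1028 counts in shIGF2BP3 (log2 fold change -0.60, adjusted p = 0.774 with edgeR), which did not pass the unadjusted threshold either. A minor transcript, ENST00000583407, had 32 and 19 counts in shCtrl and 0 in both shIGF2BP3 libraries.

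In MRPL20 the transcript ENST00000482352 held 885 and 556 counts in shCtrl and 187 and 179 counts in shIGF2BP3, 16.5% and 10.2% of the gene against 3.16% and 3.19%. The groups were far apart (log2 fold change -1.73, adjusted p = 0.479 with edgeR), while the gene had a log2 fold change of 0.31 and its main transcript, ENST00000344843, carried 80.4% to 94.2% of the counts. In MRPL36, homolog of the zinc-binding L36, ENST00000382647 also fell. It had 357 and 314 counts in shCtrl and 94 and 84 counts in shIGF2BP3, 17.2% and 14.4% of the gene against 4.11% and 4.79% (log2 fold change -1.68, adjusted p = 0.471 with edgeR), and the gene had a log2 fold change of 0.12.

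The uneven knockdown libraries of MRPL3 came from 1 transcript. ENST00000264995 held 2091 and 1689 counts in shCtrl and 5783 and 1913 counts in shIGF2BP3, so that shIGF2BP3 1 stood alone. Another transcript, ENST00000511168, had 1751 and 1418 counts in shCtrl and 2245 and 1940 counts in shIGF2BP3 and was called higher with both knockdown libraries above the controls (log2 fold change 0.63, adjusted p = 0.622 with edgeR). ENST00000425847 was called lower, at 285 and 455 counts in shCtrl and at 42 and 81 counts in shIGF2BP3. MRPS7 and MRPL3 were the 2 members with calls in both directions.

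The calls of MRPS35 and MRPL27 came from their main transcripts. ENST00000081029 of MRPS35 had 2806 and 1944 counts in shCtrl and 4876 and 4170 counts in shIGF2BP3 (log2 fold change 1.17, adjusted p = 0.440 with edgeR), and ENST00000225969 of MRPL27 had 2339 and 2531 counts in shCtrl and 1327 and 1073 counts in shIGF2BP3 (log2 fold change -0.80, adjusted p = 0.483 with edgeR). In both the groups were apart. In MRPL43 a transcript of 51 and 19 counts in shCtrl, ENST00000448244, was at 0 in both shIGF2BP3 libraries, and ENST00000370234 of the same gene went from 93 and 103 to 32 and 23 counts. MRPL34, homolog of bacterial L34, had 2 transcripts called higher, ENST00000252602 with 87 and 74 counts in shCtrl and 381 and 133 in shIGF2BP3 and ENST00000602206 with 264 and 221 against 431 and 402. Its leading transcript in shCtrl, ENST00000595444, had 802 and 1070 counts there and 198 and 882 in shIGF2BP3, so that shIGF2BP3 1 stood apart. The other calls, all higher, were 1 transcript each of MRPL1, MRPL18, MRPL32, MRPL50, MRPL39, MRPL51 and MRPL55. The transcript with the most counts differed between libraries in 12 of the 61 members with several transcripts, and in 2 of them, MRPL28 and MRPL49, it differed between the groups and not within them. In MRPL28 the leading pair of transcripts held near-equal shares throughout, 41.6% to 49.3% for ENST00000199706 and 41.0% to 48.0% for ENST00000389675. In MRPL49 the share of ENST00000526319 was 45.1% and 35.8% in shCtrl and 53.9% and 77.0% in shIGF2BP3. Both knockdown shares lay above both control shares, but neither of its leading transcripts was called.

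**Figure D4:**
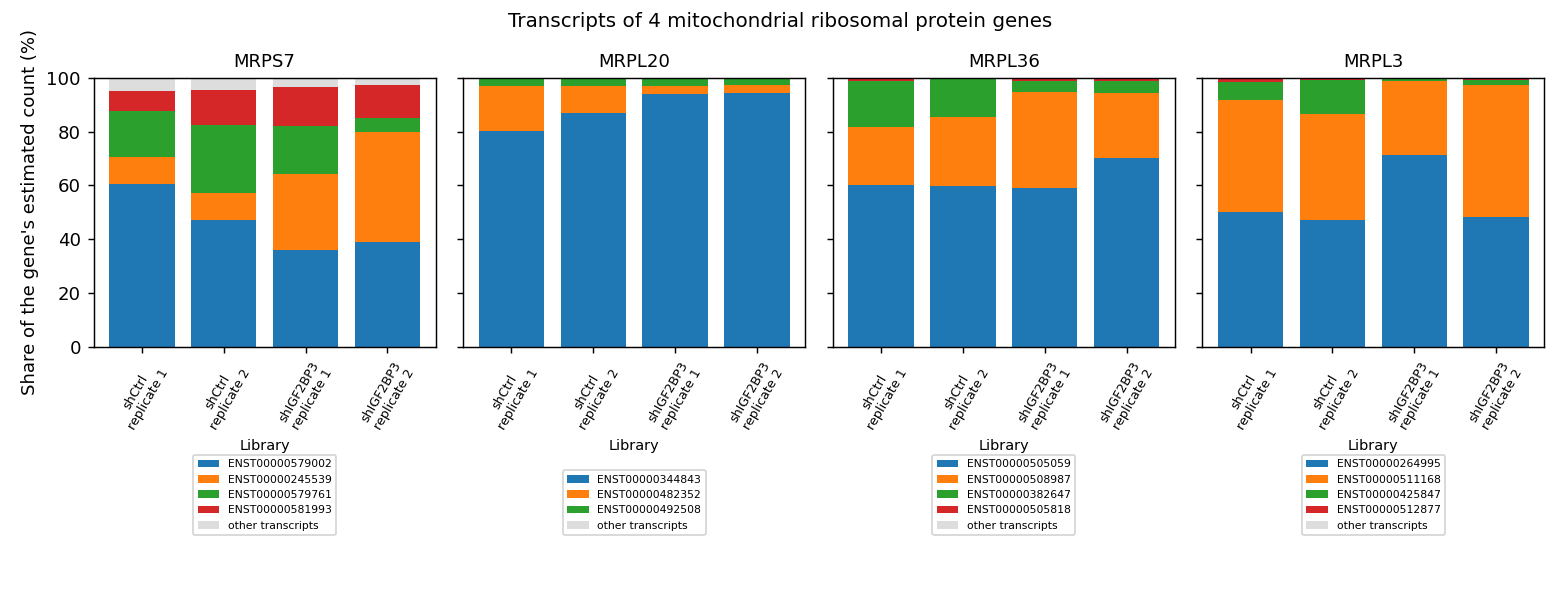
Share of each gene's estimated count (percent, stacked to 100) held by its transcripts in each of the 4 libraries, for MRPS7, MRPL20, MRPL36 and MRPL3. ENST00000245539 of MRPS7 widens from 9.83% and 9.77% in shCtrl to 28.2% and 41.1% in shIGF2BP3, and the minor transcripts ENST00000482352 of MRPL20 and ENST00000382647 of MRPL36 narrow.

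Readthrough genes join a mitochondrial ribosomal protein gene with a neighbour in 1 transcript, and 7 of them lay over 6 members. Over 5 of these members the readthrough genes held few counts, from 2 to 154 per library. Over MRPL12, homolog of the L7/L12 stalk protein that engages translation factors, 1 library stood apart. The gene that spans MRPL12 and SLC25A10, the mitochondrial dicarboxylate carrier (ENSG00000262660, chromosome 17, 81703371 to 81720539, plus strand), had 48 and 65 counts in shCtrl, 42 in shIGF2BP3 1 and 1026 in shIGF2BP3 2. Only shIGF2BP3 2 was high, with 15.7% of the counts of the readthrough gene and MRPL12 together against 0.601% to 0.840% elsewhere (log2 fold change 3.59, SE 1.43, adjusted p = 0.474 with edgeR).

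In the same library SLC25A10 alone was low. It had 1628 and 1748 counts in shCtrl, 1326 in shIGF2BP3 1 and 521 in shIGF2BP3 2. Readthrough and SLC25A10 summed to 44.6 and 53.5 CPM in shCtrl and to 39.6 and 56.2 CPM in shIGF2BP3, so the sum did not stand apart in shIGF2BP3 2. Whether the transcripts differed in that culture or the estimated counts of 2 overlapping genes were split differently there was not tested, and the log2 fold change of 3.59 rests on that library. MRPL12 was at 185 and 227 CPM in shCtrl and at 201 and 199 CPM in shIGF2BP3 (log2 fold change -0.04), with shIGF2BP3 2 inside the range of the others.

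Over MRPS28 the readthrough gene with TPD52 (ENSG00000276418) had 154 and 77 counts in shCtrl and 15 and 60 counts in shIGF2BP3 (adjusted p = 0.531 with edgeR). TPD52, a regulator of vesicle traffic on the same strand, was at 45.2 and 44.7 CPM in shCtrl and at 97.5 and 117 CPM in shIGF2BP3 (log2 fold change 1.26, adjusted p = 0.118 with edgeR), while MRPS28 was level at 45.5 and 41.0 CPM in shCtrl and at 40.8 and 44.6 CPM in shIGF2BP3. Counts pooled over the 3 genes gave a log2 fold change of 0.73 (adjusted p = 0.418 with edgeR), with MRPS28 itself at -0.02. URGCP-MRPS24 had 11 and 16 counts in shCtrl and 3 and 2 counts in shIGF2BP3 (log2 fold change -2.19, adjusted p = 0.472 with edgeR), at most 0.266% of the counts it and MRPS24 held together. MRPS24 was at 113 and 177 CPM in shCtrl and at 121 and 114 CPM in shIGF2BP3, with overlap.

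The readthrough genes over MRPL30, 1 with LIPT1 and C2orf15 (27 to 39 counts) and 1 with LIPT1 (10 to 33 counts), held 2.06% to 7.21% of the joint counts. That over MRPL38 and FBF1 held 0.244% to 0.809%, and that over MRPS17 and ZNF713 1.20% to 4.04%. The last also overlaps NIPSNAP2 (55951793 to 56000181) but does not span it, since it ends at 55955239. None of these 4 readthrough genes was called.

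**Figure D5:**
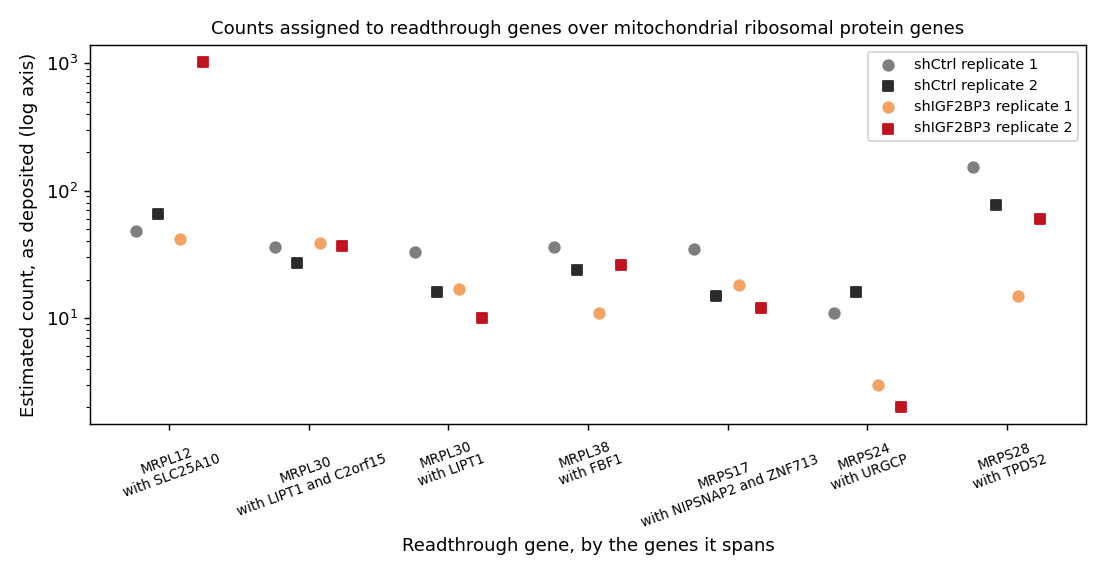
Estimated count of each of the 7 readthrough genes in each library on a log axis, labelled by the genes overlapped on the same strand, not all of them spanned. The gene over MRPL12 and SLC25A10 reaches 1026 in shIGF2BP3 replicate 2 and stays at 42 to 65 in the other 3 libraries, and the other readthrough genes hold 2 to 154 counts.

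Other genes also overlapped members on the same strand with at least 10% of the joint counts in at least 1 library. BABAM2 held 34.9% to 36.5% of the counts of the pair with MRPL33, NIPSNAP2 47.0% to 60.8% beside MRPS17, SLC5A3 18.1% to 26.8% beside MRPS6, and CCDC142 5.38% to 23.7% beside MRPL53, where it was over 10% in 2 libraries. The gene ENSG00000213551, which shares 20 bases with MRPS16, held 49.8% to 52.4%. CCDC142 moved most between libraries, with 240 and 193 counts in shCtrl and 117 and 414 in shIGF2BP3. In total 10 members overlapped a gene on the same strand and 20 one on the opposite strand, and whether the counting used strand is not given in the sources used here. None of the 8 called members had a same-strand overlap, and MRPL32 had 1 on the opposite strand.

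Named pseudogenes are a further source of shared reads, and 41 of the 77 members had at least 1 in RefSeq, 100 in all. MRPL50 had 4, MRPS35 and MRPS31 3 each, MRPL32 2 and MRPL3 1, while MRPL1, MRPL18 and MRPL27 had 0. How reads that fit several places were counted is not given in the sources used here, so the values of members with pseudogenes are less certain.

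Other lists of the mitochondrial translation machinery were read against the same background, in which 5.32% of all tested genes were called, 2.54% higher and 2.78% lower. Of 5 mitochondrial ribosomal proteins under other symbols, such as DAP3 and PTCD3, 3 had positive and 2 negative log2 fold changes and 0 were called. Of 28 assembly factors 11 were positive and 17 negative with a median of -0.037, and 0 were called. Of 23 mitochondrial aminoacyl-tRNA synthetase genes and their partners 8 were positive and 15 negative with a median of -0.085, and 0 were called. By edgeR's unadjusted p of at most 0.05 these 3 lists held 0, 2 and 1 genes, where 10.5% of all tested genes passed.

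Of 17 genes for translation factors and related proteins of mitochondrial translation 13 were positive and 4 negative, with a median of 0.206. Of these 17, 1 was called lower (5.88%). It was GFM2, the factor that splits the mitochondrial ribosome after termination, at 43.9 and 39.7 CPM in shCtrl and at 26.3 and 21.3 CPM in shIGF2BP3. Its groups were apart (log2 fold change -0.81, adjusted p = 0.472 with edgeR). Of 19 genes for mitochondrial transcription and RNA processing 9 were positive and 10 negative, and 2 were called higher (10.5%). MTERF1, which binds the transcription termination site in mitochondrial DNA, was at 7.37 and 8.21 CPM in shCtrl and at 18.3 and 11 CPM in shIGF2BP3 (log2 fold change 0.91, adjusted p = 0.472 with edgeR). MTPAP, the mitochondrial poly(A) polymerase, was at 18.8 and 18.3 CPM in shCtrl and at 26.4 and 31.0 CPM in shIGF2BP3 (log2 fold change 0.63, adjusted p = 0.472 with edgeR). In both genes the knockdown libraries lay above both controls.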

How the data were processed

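RNA was sequenced from H1299 cells, 2 shCtrl and 2 shIGF2BP3 libraries, grouped by the sample labels. The deposited tables hold the authors' estimated counts for each transcript (whole numbers, not normalized) and FPKM values per transcript and library, scaled by length and depth. The submitters' processing notes name CASAVA, Trimmomatic, HISAT2, bedtools, FastQC and GRCh38. The counter, the annotation and the handling of strand and multi-mapped reads are not given in the sources used here. Columns of per-sample values left unused numbered 0.

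Summing over the 95139 transcripts of the table gave values for 20263 genes. The table holds Ensembl identifiers without symbols. Genes took the symbol of the protein-coding RefSeq gene (GRCh38.p14) that they overlapped best and that overlapped them best, if the overlap covered 0.5 or more of both spans joined and exceeded the next best by 0.2 (18222 genes), or if the pair shared a start or end within 20 bases (525 genes, 3 members: MRPL19, MRPL41 and MRPL43). A further 113 RefSeq entries with such symbols, pseudogenes and non-coding RNAs, were no members. No sequence is shown.

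The test was edgeR's quasi-likelihood test (version 4.0.16, R 4.3.3) after TMM scaling, with a prior count of 0.125. It ran on 13379 genes that passed filterByExpr (minimum count 10, minimum total 15), with Benjamini-Hochberg adjustment over all of them, and transcripts likewise. The steps were tested on simulated data. The biological coefficient of variation common to all genes was 22.8%, and the 2 libraries per group limited precision more than depth. Replicates of a group differed far beyond sampling noise (chi-square per degree of freedom 79.1 in shCtrl and 78.6 in shIGF2BP3).

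Calls needed a fold change of 1.5 or more together with p no higher than 0.05 before adjustment. Lists were described by counts and medians, without set tests. Named members were those called, the 5 higher and 5 lower with the smallest p and no overlap between groups, the 3 highest and 3 lowest by mean FPKM in each subunit, those with a readthrough gene or a same-strand gene holding at least 10% of the joint counts, those whose name and place differ, and those near the thresholds. Of other lists the called genes were named, with DAP3 and PTCD3 as examples, and IGF2BP3, ND3, cell markers and neighbours of members besides. The list of members without those near the thresholds gave 34 names. In it MRPS18B, MRPS18C, MRPL57 and MRPL58 stood with those whose name and place differ, though their place matches their name. Further members were named for their transcripts or for how they were mapped. Members and lists were chosen with earlier results of these data known. The other settings were RLE factors, DESeq2 1.42.0, library totals with and without mitochondrial genes, other filters, a replicate block, limma 3.58.1 on log2 FPKM (pseudocount 1 or 0.1, with and without an FPKM minimum of 1 in 2 libraries), pooled overlapping genes, subunits by position, an adjusted threshold and each library left out.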

Additional observations from a re-analysis of the deposited data

How the results depend on the processing

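The 7 higher calls became 3 with library totals as scaling (3 higher to 1 lower, where TMM gave 7 to 1). They became 5 with library totals without the mitochondrial genes. With overlapping genes pooled they became 8, with MRPS28 added where its pooled counts included TPD52. They became 4 with limma on log2(FPKM + 1), 4 with log2(FPKM + 0.1) and 2 with log2(FPKM + 1) and no filter. At an adjusted p under 0.05 they became 0, where the 1 lower call also became 0. With a library left out the higher calls ran from 2 to 9, with 3 without shCtrl 1 and 2 without shIGF2BP3 2, and the lower calls from 1 to 2, with MRPS24 added without shCtrl 1 (log2 fold change -0.59) and MRPL49 without shCtrl 2. The small-subunit median of 0.003 became -0.077 with library totals, which moved the median of all genes to -0.081, and it ran from -0.006 to 0.072 with a library left out, where the large-subunit median ran from -0.012 to 0.164. Library totals gave a large-subunit median of -0.019. Under limma on log2(FPKM + 1) the large and small medians were -0.037 and -0.048 where all genes had -0.07, with log2(FPKM + 0.1) -0.039 and -0.049 where all genes had -0.081, and without the filter -0.037 and -0.048 where all genes had -0.026. With library totals and under limma with the filter, both subunit medians lay above that of all genes, as with TMM. Under limma without the filter both lay below it. Without shCtrl 1 the large-subunit median of -0.012 lay below that of all genes, 0.006. Without shIGF2BP3 2 the small-subunit median of -0.006 lay just below that of all genes, -0.005. With either other library left out both subunit medians lay above that of all genes. Why the calls and medians moved was not tested.

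With the replicate number as a block the calls were 7 higher and 1 lower and the medians 0.057 and 0.005. The deviations of same-numbered libraries had a correlation of 0.0218 over genes. This value is taken over all genes together, so it cannot exclude a shift shared by some genes or that samples were paired. The mitochondrial share was higher in the second replicate of both groups. Pairing by the library numbers of the deposited tables was not tested. The block changed no other call among the named members.

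Of 405 values over 27 named members, 342 kept direction and side of the thresholds, 34 lost the call, 3 gained it and 26 changed sign, in 10 members that included MRPS24, at -0.304 with TMM. With library totals MRPL58 was at -0.043 and MRPS16 at -0.076, and without the mitochondrial genes in the totals MRPS16 was at -0.023. With limma MRPL58 was at -0.045 (pseudocount 1, with or without the filter) or -0.046 (0.1) and MRPS16 at -0.004 in all 3. With overlapping genes pooled MRPL53 was at 0.027, MRPS16 at -0.017 and MRPS28 at 0.727, the last with TPD52 included. With a library left out the log2 fold changes ran as follows. They were MRPL12 from -0.174 to 0.112, MRPL38 from -0.157 to 0.146, MRPL53 from -0.200 to 0.090, MRPL58 from -0.098 to 0.164, MRPS6 from -0.020 to 0.302. They were also MRPS16 from -0.056 to 0.083, MRPS18A from -0.325 to 0.069, MRPS18C from -0.117 to 0.049, MRPS24 from -0.589 to 0.057 and MRPS28 from -0.091 to 0.061. The 2 libraries per group limit what can be seen, and leaving 1 out assumes that the lone library varies like the other group.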
